A study of Oryctolagus cuniculus with 3 samples.

Results

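Chaperones and protein folding enzymes were followed in day 6 rabbit embryos that had been cryopreserved as morulae by slow freezing or by vitrification. Members were taken by gene symbol: the heat shock proteins (HSP), J-domain proteins (DNAJ), TRiC subunits (CCT2 to CCT8 and TCP1), protein disulfide isomerases (PDIA and P4HB), FKBP prolyl isomerases, prefoldin subunits (PFDN), and CRYAB, CALR, CANX, STIP1 and AHSA1. The rule leaves out 1 further gene that the HSP prefix matches. It found 62 of the 6376 named genes of the value table, measured by 173 of 22839 probes. By the compartment in which the protein works, 32 were cytosolic, 15 belonged to the endoplasmic reticulum (ER), 8 to mitochondria and 7 to the nucleus or other sites. Another 11 genes that match the rule were on the array but had no probe in the value table: CCT6B, DNAJC12, DNAJC16, DNAJC5B, DNAJC5G, FKBP5, HSPA12A, HSPA12B, HSPB2, HSPB6 and HSPB9.

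Both groups started as morulae recovered on day 3 after artificial insemination, and both were cryopreserved at that stage and then carried by recipient does for 3 days. The frozen group was slow-frozen; the sources used here do not describe how. The vitrified group passed through dimethyl sulphoxide and ethylene glycol and was plunged into liquid nitrogen in straws. Each of 3 Agilent arrays with 2 dye channels set RNA of frozen embryos directly against RNA of vitrified embryos, with the dyes exchanged on replicate 2. The labels call the arrays biological replicates. The sources used here give neither the rabbit strain nor how many embryos made up an RNA sample, and fresh embryos were not analysed here. Each value is a log2 ratio, frozen over vitrified, and is positive for a gene with more signal in slow-frozen embryos. In RNA of whole embryos, fewer cells of a type and less RNA per cell cannot be told apart.

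Chaperones bind proteins that are unfolded or still being made and keep them from aggregating until they fold. In the cytosol, J-domain proteins deliver substrates to HSP70, prefoldin delivers new actin and tubulin to the barrel-shaped chaperonin TRiC, and HSP90 with its co-chaperones matures kinases and receptors. The ER has its own set, in which calnexin and calreticulin hold glycoproteins while disulfide isomerases form and reshuffle disulfide bonds. Mitochondria refold imported proteins with their own HSP70 and with the HSP60 and HSP10 chaperonin.

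The probes behind the results below are 60 bases long. They are printed 5′ to 3′ with the base at which the array design starts them in the transcript. Apart from the CCT3 probe, they were chosen because a result turns on that probe or because it lies on a recognisable part of the protein. The printed CCT3 probe lies between the early and late probes compared below and was not part of that comparison. Capitals in the earlier PDIA4 probe mark the codons for tryptophan, cysteine, glycine and histidine that open a thioredoxin-type active site. In PDIA3 they mark the last codons, which encode the ER retrieval signal, and the stop codon. In DNAJC19 they mark the histidine, proline and aspartate codons of the J domain, the motif that stimulates HSP70. The other probes carry no mark.
PDIA4, start 536: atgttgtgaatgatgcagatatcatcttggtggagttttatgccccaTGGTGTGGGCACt
PDIA4, start 1815: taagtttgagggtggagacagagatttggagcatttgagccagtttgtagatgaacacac
PDIA3, start 1449: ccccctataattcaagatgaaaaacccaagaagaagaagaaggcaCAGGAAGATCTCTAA
DNAJC19, start 362: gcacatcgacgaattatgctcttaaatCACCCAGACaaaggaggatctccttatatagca
CCT3, start 1163: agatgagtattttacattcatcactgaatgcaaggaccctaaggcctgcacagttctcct
HSPD1, start 1561: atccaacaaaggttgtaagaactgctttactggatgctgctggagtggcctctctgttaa
FKBP14, start 502: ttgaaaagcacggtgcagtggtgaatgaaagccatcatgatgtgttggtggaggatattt
HSPA2, start 1797: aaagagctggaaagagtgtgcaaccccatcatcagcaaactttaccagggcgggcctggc
HSPH1, start 2308: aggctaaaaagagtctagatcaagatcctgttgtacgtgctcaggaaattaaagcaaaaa

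Across the 62 genes, no difference between slow-frozen and vitrified embryos passed the test. With limma and Benjamini-Hochberg adjustment over all probes, 0 of 62 had an adjusted p under 0.05, against 0% of all 22839 probes. At an unadjusted p under 0.05 there was 1 of 62, FKBP14, which was lower after slow freezing; 4.47% of all probes passed, 1.84% higher and 2.62% lower. A mean change of at least 1.5-fold was seen for 1 member, DNAJB7, against 2.8% of all probes. The 95% interval of the mean lay within 1.5-fold either way for 39 of 62 members, which is 62.9%, against 61.7% of all probes. For the remaining members the interval still takes in a change of 1.5-fold or more.

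**Figure D1:**
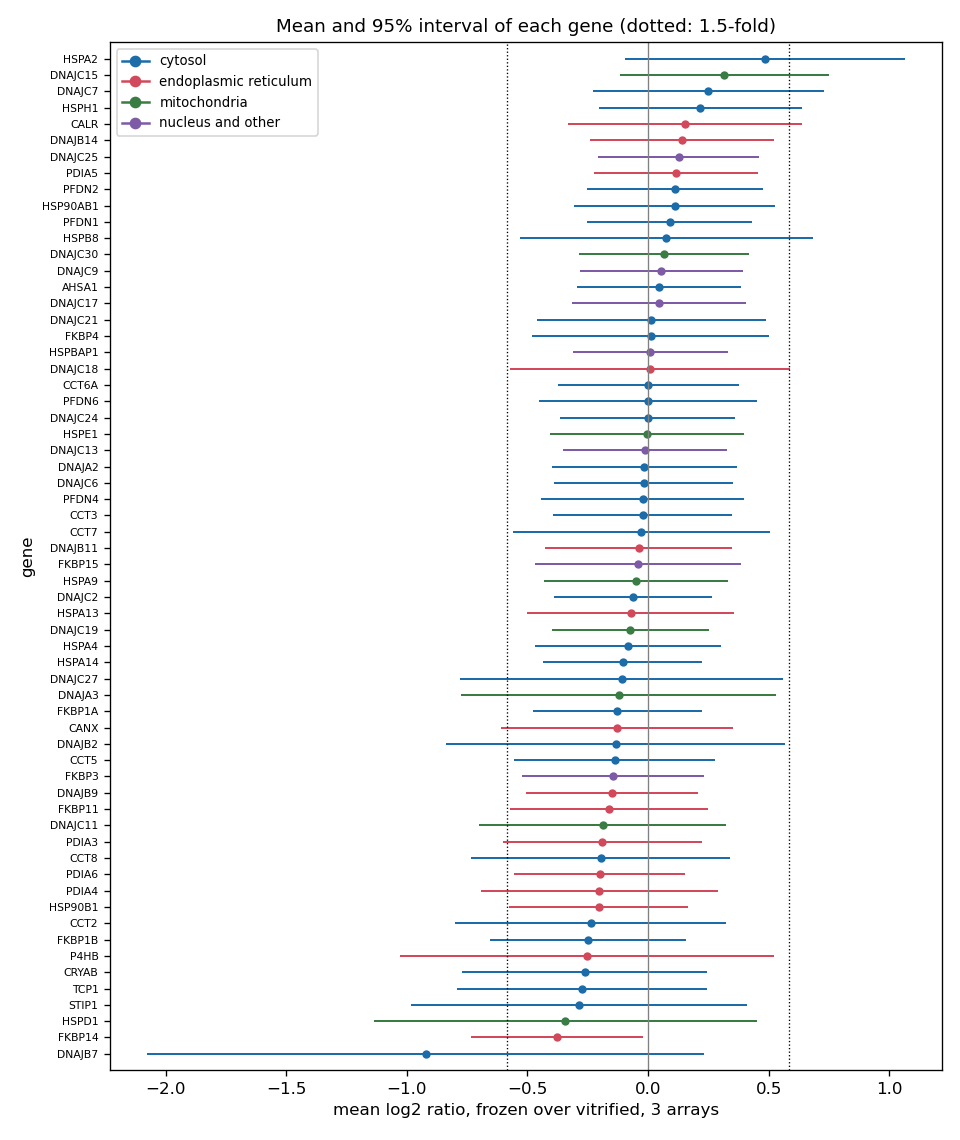
Mean log2 ratio of frozen over vitrified (points) and its 95% interval from limma (lines) for each of the 62 genes over 3 arrays, coloured by compartment, with dotted lines at 1.5-fold either way. The interval of FKBP14, from -0.73 to -0.03, is the one that does not reach 0, and that of DNAJB7 is the widest.

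The arrays ranked the genes differently. On replicate 1, 36 of 62 members were below 0, on replicate 2 there were 26 and on replicate 3 there were 34, against 51.4%, 47% and 47.2% of all probes. Of all named genes, read by 1 probe each as the members were, 58.2%, 43.1% and 46.7% were below 0. Only 7 of 62 (11.3%) had the same sign on all 3 arrays, 2 of them higher and 5 lower after slow freezing, where 22.5% of all probes did, 11.7% higher and 10.9% lower. Counted by dye instead, 25 of 62 (40.3%) had one sign of red over green on all 3 arrays, 10 higher in red and 15 higher in green, against 26.9% of all probes, 13.8% higher in red and 13.2% higher in green. Over the 62 genes, the correlation was -0.55 between replicates 1 and 2, -0.08 between 1 and 3 and 0.40 between 2 and 3; these are across genes, which are not independent replicates, and over all probes the values were -0.36, -0.01 and 0.48.

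The direction of the column of replicate 2 is likely but not stated. Its 10 spike-in probes correlated at -1.0 with those of replicates 1 and 3, which correlated at 0.99 with each other, which is what a column already expressed as frozen over vitrified would give if each spike-in mix kept its usual dye. If the column runs the other way, the 25 genes of one dye sign would be the ones with one direction of storage. Means with the sign of replicate 2 turned are therefore given where they matter. The median member ratio was -0.14, 0.02 and -0.01 on replicates 1, 2 and 3, beside -0.08, 0.04 and 0.02 for all named genes.

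**Figure D2:**
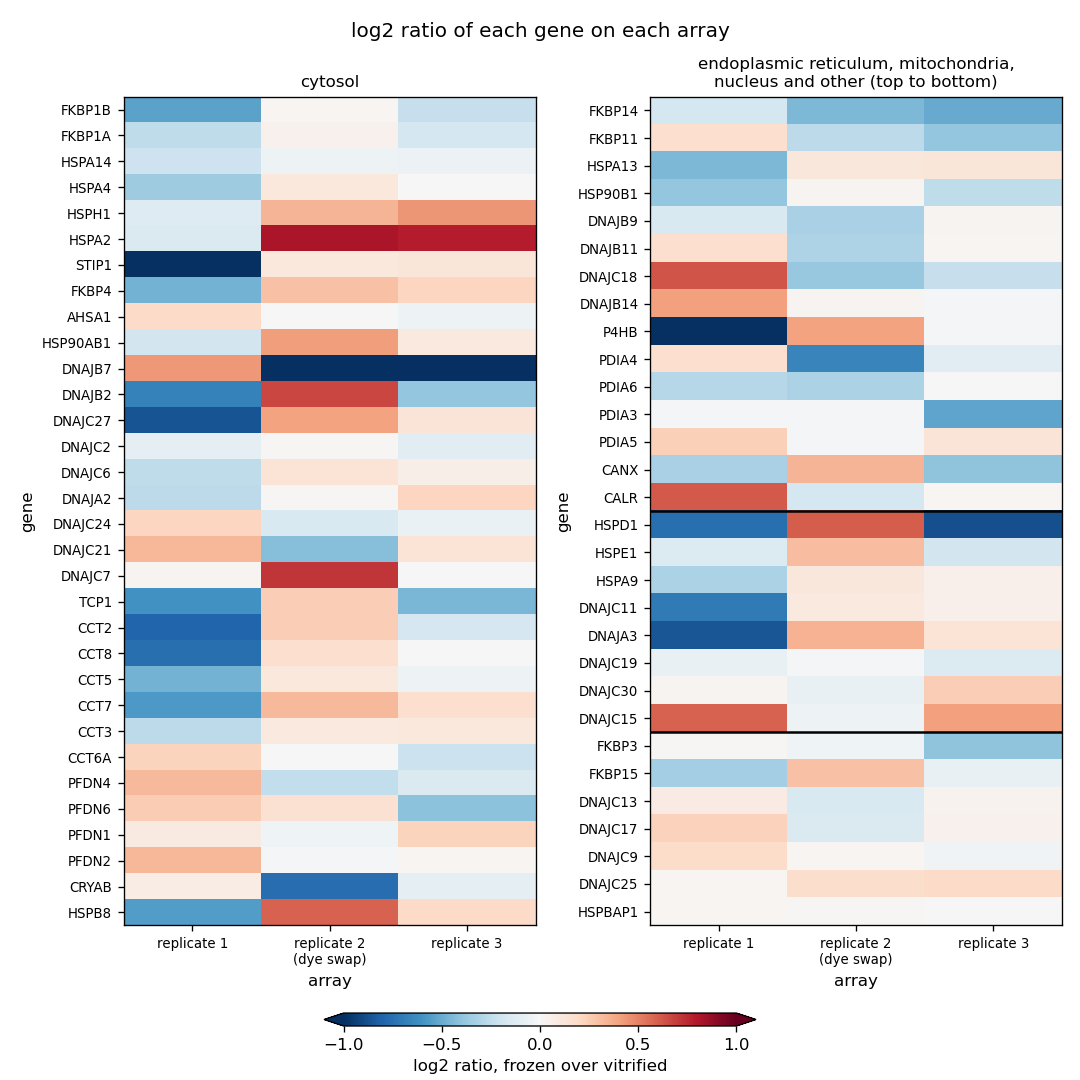
Log2 ratio of frozen over vitrified of each of the 62 genes (rows) on each array (columns), grouped by compartment and, within it, by protein family; the colour scale ends at 1 either way and deeper values take the end colour. Many rows change colour between replicate 1 and replicate 2, and 7 rows keep one sign throughout.

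In the cytosol, no subunit of the chaperonin TRiC had one sign on all 3 arrays. Of its 7 measured subunits, 6 were below 0 on replicate 1, where 58.2% of all named genes were. On replicate 2, where 43.1% of all named genes were below 0, 6 subunits were above 0. The array medians of the 7 subunits were -0.57, 0.17 and -0.05, which give a mean of -0.15 ± 0.38 (SD, n = 3), or -0.26 with replicate 2 turned. TCP1, the alpha subunit, had values of -0.61, 0.25 and -0.46, a mean of -0.27 ± 0.46 (SD, n = 3). CCT5, the epsilon subunit, read -0.47, 0.11 and -0.05. Both were lower after slow freezing on replicates 1 and 3 and higher on the dye-swapped array.

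The remaining subunits were outside the rule for named genes and were chosen after their values were seen. CCT2 read -0.79, 0.25 and -0.17, CCT8 -0.75, 0.17 and -0.01, and CCT7 -0.57, 0.33 and 0.16. CCT6A was the subunit that went the other way on replicate 1, with 0.22, -0.01 and -0.21. The spread between arrays exceeded the mean for every TRiC subunit. Prefoldin is the complex that hands substrates to TRiC. Its 4 member subunits, named PFDN, were all above 0 on replicate 1 by their brightest probes. They ran from 0.09 for PFDN1 to 0.34 for PFDN2, with a median of 0.29. Their medians on replicates 2 and 3 were -0.03 and -0.06, so that these 4 and TRiC were apart on replicate 1 and close on replicate 3. VBP1, a further prefoldin subunit that the symbol rule does not match, was below 0 on replicate 1. It read -0.22, 0.54 and -0.13. PFDN1, the named subunit, had values of 0.09, -0.04 and 0.22. Its dimmest probe, starting at base 360, read -0.24, -0.16 and -0.08, while its brighter probes were above 0 on replicate 1. The sign of PFDN1 on replicate 1 thus depended on the probe. PFDN4 and PFDN6, with 0.33 and 0.25 on replicate 1, read -0.15 and -0.41 on replicate 3.

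**Figure D3:**
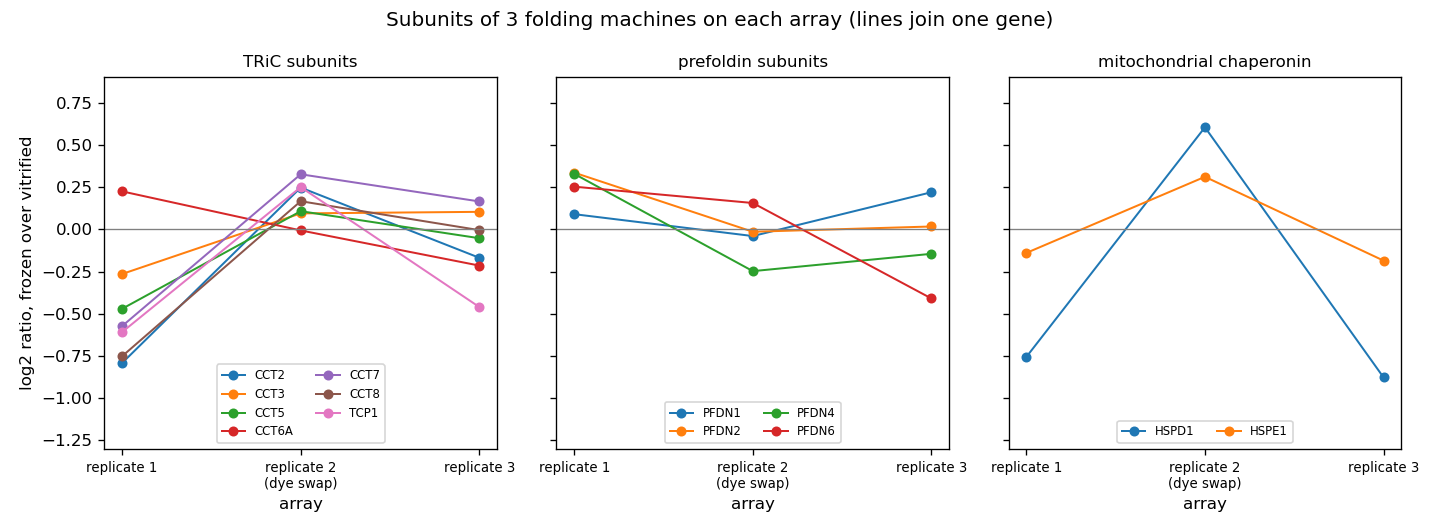
Log2 ratio of frozen over vitrified (vertical axis) on each array (horizontal axis) for the member subunits of TRiC, prefoldin and the mitochondrial chaperonin. Lines join the values of one gene, and the prefoldin subunit VBP1, not a member, is not shown. By their brightest probes, 6 of 7 TRiC subunits lie below 0 on replicate 1 and all 4 PFDN subunits lie above 0 there. HSPD1 and the brightest HSPE1 probe change sign on the dye-swapped replicate 2.

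HSP70 proteins bind short hydrophobic stretches of unfolded chains. All 6 members of the HSP70 and HSP110 family were below 0 on replicate 1, where 58.2% of all named genes were. The family medians on replicates 1, 2 and 3 were -0.26, 0.11 and 0.08, beside -0.08, 0.04 and 0.02 for all named genes. HSPA2, an HSP70 best known from male germ cells, read -0.15, 0.82 and 0.78, the highest member mean at 0.49 ± 0.55 (SD, n = 3; unadjusted p = 0.084, adjusted p = 1.00 by limma). Replicates 2 and 3 were high and replicate 1 was slightly below 0. Without replicate 1 its mean was 0.80, with an adjusted p of 0.021, where 3.49% of all probes were called. The adjusted p under the other alternatives lay between 0.97 and 1.00, and the mean was -0.06 with replicate 2 turned.

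HSPH1, an HSP110 that recharges HSP70 with ATP, had a like order of values, -0.13, 0.34 and 0.44, and a mean of 0.22 ± 0.31 (SD, n = 3). It became -0.01 with replicate 2 turned. HSPA4, another HSP110, read -0.36, 0.11 and -0.00. By its brightest probe HSPA14, an HSP70 found at the ribosome, was lower after slow freezing on all 3 arrays, at -0.21, -0.05 and -0.06, a mean of -0.11 ± 0.09 (SD, n = 3; unadjusted p = 0.45 by limma). Its values on replicates 2 and 3 were close to 0, and its 3 probes ran from -0.05 to 0.04 on replicate 2.

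Of 5 genes for HSP90 and its helpers 4 were below 0 on replicate 1, where 58.2% of all named genes were. On replicate 2, where 43.1% of all named genes were below 0, 4 of the 5 were above 0. HSP90AB1, the constitutive HSP90 of the cytosol, had values of -0.19, 0.41 and 0.10. STIP1, which passes substrates from HSP70 to HSP90, read -1.09, 0.11 and 0.12, so that its mean of -0.29 ± 0.70 (SD, n = 3) rested on replicate 1. FKBP4, an HSP90-bound prolyl isomerase, read -0.47, 0.29 and 0.21. AHSA1, which speeds the ATPase of HSP90, stayed near 0 at 0.19, -0.00 and -0.05.

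The J-domain proteins, the largest family with 22 genes, were centred on 0, with medians of 0.03, -0.00 and 0.03. DNAJB7 had the widest range of any member, with 0.43, -1.14 and -2.06, a mean of -0.92 ± 1.26 (SD, n = 3; unadjusted p = 0.096, adjusted p = 1.00 by limma) and -0.16 with replicate 2 turned. It has 1 probe, and its mean log2 processed signal of 6.33 was among the 7 members under 7. Without replicate 1 its mean was -1.60 with an adjusted p of 0.0091, while the other alternatives gave between 0.96 and 1.00. DNAJC7, which binds both HSP70 and HSP90, was above 0 on all arrays at 0.03, 0.72 and 0.00, but only replicate 2 was clearly so. DNAJC27, a small GTPase with a J domain, had 5 probes whose means ran from -0.11 to 0.21. Its brightest probe, still dim at a mean log2 signal of 5.83, read -0.86, 0.41 and 0.13. Over the whole family 13 of 22 means were below 0, and 3 genes kept one sign on all 3 arrays. DNAJB2, a dim member outside the rule for named genes, read -0.68, 0.67 and -0.39 and was thus of one sign by dye. The cytosolic J proteins DNAJA2, DNAJC2, DNAJC6, DNAJC21 and DNAJC24 had means between -0.06 and 0.01.

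Small heat shock proteins hold denatured proteins without using ATP. CRYAB, alpha-B crystallin, read 0.07, -0.77 and -0.10, a mean of -0.26 ± 0.44 (SD, n = 3) that became 0.25 with replicate 2 turned. HSPB8, outside the rule for named genes, read -0.56, 0.59 and 0.19. The whole cytosolic set had medians of -0.23, 0.11 and -0.00. Its mean over arrays was -0.04 ± 0.17 (SD, n = 3).

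**Figure D4:**
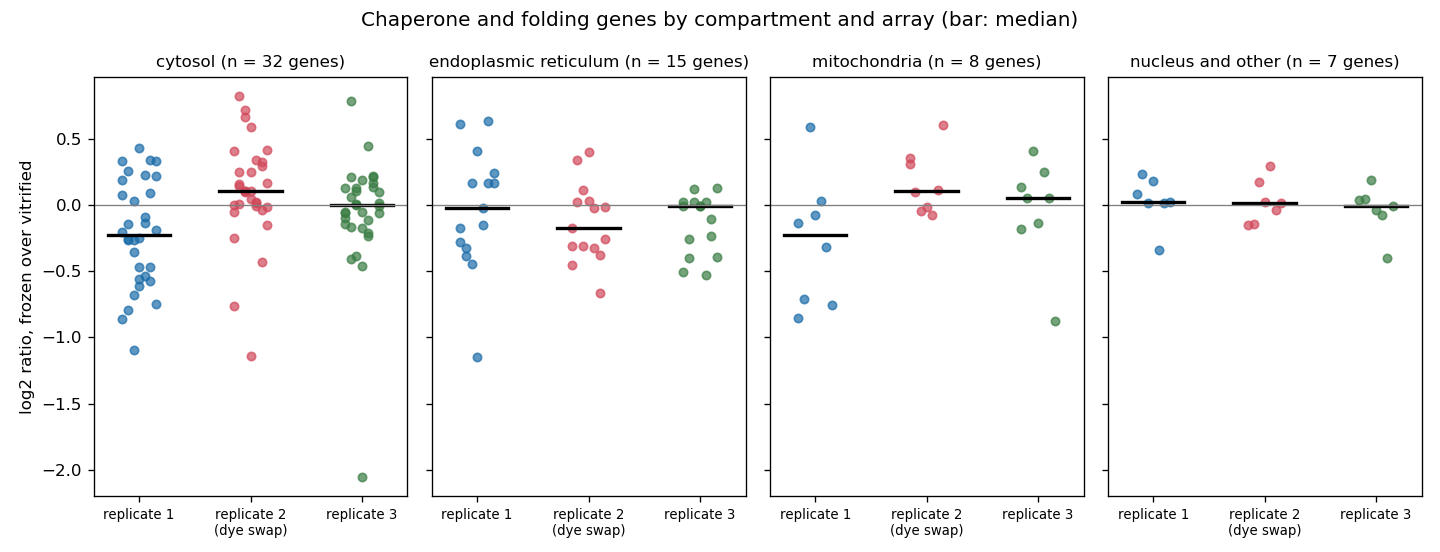
Log2 ratio of frozen over vitrified (vertical axis) of every gene on each array, in a panel for each compartment; points are genes and black bars medians. Cytosolic and mitochondrial medians are below 0 on replicate 1 (both -0.23) and above 0 on replicate 2 (both 0.11), whereas the ER median is lowest on replicate 2 (-0.18).

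In the ER, 11 of 15 genes (73.3%) had a mean below 0, beside 41 of all 62 members (66.1%), and none passed the adjusted test. Means were below 0 for 3399 of 6376 named genes and for 49.1% of all probes. The ER medians were -0.02, -0.18 and -0.01 on the 3 arrays, a mean of -0.07 ± 0.09 (SD, n = 3) that became 0.05 with replicate 2 turned. The ER median was 0.21 above the cytosolic one on replicate 1, 0.28 below it on replicate 2 (-0.28) and level with it on replicate 3 (-0.01). FKBP14, an ER prolyl isomerase that assists collagen folding, had the one unadjusted p under 0.05. It read -0.18, -0.45 and -0.51, a mean of -0.38 ± 0.18 (SD, n = 3; 95% interval -0.73 to -0.03, unadjusted p = 0.040, adjusted p = 1.00 by limma). All 5 of its probes were below 0 on all 3 arrays, with means from -0.64 to -0.33; they overlap in sequence and were dim, so they are not replicates. The mean became -0.08 with replicate 2 turned. From replicates 1 and 3 alone it was -0.34 by the processed signals and -0.15 by normexp and loess values.

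FKBP11, a second ER prolyl isomerase, read 0.16, -0.26 and -0.39. FKBP4 stands with HSP90 and is not counted here; it had a mean of 0.01 and read 0.21 on replicate 3. Counted over compartments, the other 6 FKBP genes all had means below 0, from -0.38 for FKBP14 to -0.04 for FKBP15. All 6 were below 0 on replicate 3, where 47.2% of all probes were. Of the 6, FKBP14, FKBP15 and FKBP1B were dim, with a mean log2 signal under 7. The medians of the 6 were -0.21, -0.01 and -0.31, and the signs on replicates 1 and 2 were mixed. FKBP1A and FKBP1B, the cytosolic rapamycin-binding isomerases, read -0.25, 0.04 and -0.17 and -0.54, 0.02 and -0.23. The replicate 2 value of FKBP1B depended on the probe: its other 4 probes read -0.38 to -0.23 there, and all 5 were below 0 on replicates 1 and 3. Of 5 disulfide isomerases 4 had means below 0, but none passed the test. PDIA6 was below 0 throughout, at -0.28, -0.31 and -0.01 (mean -0.20 ± 0.17, SD, n = 3), and PDIA3, the isomerase that works with calnexin and calreticulin, at -0.02, -0.02 and -0.53. The second PDIA3 probe, over the retrieval signal printed above, read -0.02, 0.19 and -1.04, so the sign on replicate 2 depended on the probe. P4HB, the classical disulfide isomerase, read -1.15, 0.40 and -0.01, and its mean of -0.25 ± 0.80 (SD, n = 3) rested on replicate 1.

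PDIA4 gave opposite answers at the ends of its transcript. Its 5 early probes, starting at bases 531 to 536, had median values of -0.55, 0.17 and 0.32. Its 2 probes starting at 1795 and 1815 read 0.29, -0.67 and -0.07. The later probes minus the earlier ones came to 0.85, -0.83 and -0.38, so a value for this gene depends on which printed probe is read. CCT3 had the same kind of difference on replicate 1 only: its 2 earliest probes read -0.96 there and its 5 latest -0.26, a difference of 0.69, beside -0.15 and 0.11 on replicates 2 and 3. They were the members whose probes, described as their own gene, lay at least 500 bases apart.

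**Figure D5:**
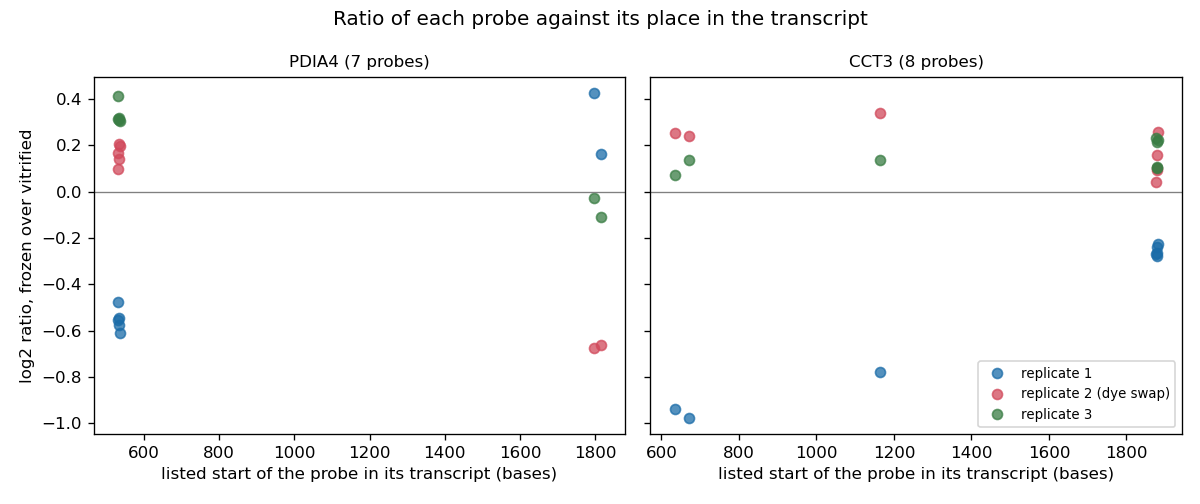
Log2 ratio of frozen over vitrified (vertical axis) of each probe of PDIA4 (7 probes) and CCT3 (8 probes) against the base at which it starts in the transcript (horizontal axis); colours mark the arrays. The PDIA4 probes change sign between the early and late position on every array, and the early CCT3 probes lie near -0.96 on replicate 1 against -0.26 for the late ones.

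The lectin chaperones also split. CALR, calreticulin, read 0.61, -0.18 and 0.02 by its brightest probe, while its other 4 probes, shifted by single bases, read -0.69 to -0.78 on replicate 2. CANX, calnexin, read -0.33, 0.34 and -0.40. HSP90B1, the HSP90 of the ER, read -0.38, 0.02 and -0.26, a mean of -0.21 ± 0.21 (SD, n = 3). DNAJB9, a J protein that restrains the ER stress sensor IRE1, read -0.15, -0.33 and 0.03, and DNAJB11, which serves the ER HSP70, 0.17, -0.31 and 0.02. The ER members outside the rule for named genes were PDIA5, with 0.24, -0.01 and 0.13, HSPA13, with -0.45, 0.11 and 0.12, DNAJB14, with 0.41, 0.03 and -0.01, and DNAJC18, with 0.63, -0.38 and -0.23. They had no direction in common on any array.

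In mitochondria, HSPD1 changed sign on the dye-swapped array, and HSPE1 did so by its brightest probe. HSPD1, HSP60, read -0.76, 0.60 and -0.88, a mean of -0.34 ± 0.82 (SD, n = 3; unadjusted p = 0.32). With replicate 2 turned its mean was -0.75, with an unadjusted p of 0.0018 and an adjusted p of 0.84. HSPE1, its HSP10 lid, read -0.14, 0.31 and -0.19. Of the 9 probes with its own description, all were below 0 on replicate 1 and above 0 on replicate 2, but 5 were above 0 on replicate 3. The mean of replicates 1 and 3 was -0.16 from the processed signals and 0.17 from normexp and loess values. These genes are immediate neighbours among the protein-coding genes of the RefSeq table for mOryCun1.1, with 0 genes between them. Those 9 HSPE1 probes had means from -0.05 to 0.06, and 2 more probes that the array describes as another gene had 0.10 and 0.17.

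HSPA9, the mitochondrial HSP70, read -0.32, 0.12 and 0.05. DNAJC19, a J protein of the import motor, was below 0 on all arrays by its brightest probe, at -0.07, -0.01 and -0.13. On replicates 1 and 3 these values were smaller than the error of a single spot. Its 5 probes ran from -0.11 to 0.07 on replicate 1 and from -0.18 to 0.01 on replicate 2. DNAJC15, a related J protein outside the rule for named genes, had the second highest member mean, with 0.59, -0.05 and 0.41 (mean 0.32 ± 0.33, SD, n = 3). DNAJA3 and DNAJC11 read -0.85, 0.35 and 0.14 and -0.71, 0.10 and 0.05, both low on replicate 1, and DNAJC30 read 0.03, -0.08 and 0.25. By their brightest probes, the 7 genes of the nucleus and other sites varied least between arrays of the 4 compartments (median SD 0.13). They had medians of 0.02, 0.01 and -0.00 and every 95% interval within 1.5-fold either way. This depended on the probe: on replicate 1 the 3 HSPBAP1 probes ran from -0.50 to 0.02 and the 2 DNAJC13 probes from 0.08 to 0.33. DNAJC25, a membrane J protein, was above 0 on all 3 arrays by its brightest probe, at 0.02, 0.17 and 0.19. Its 5 probes ran from -0.06 to 0.10 on replicate 1. The means of DNAJC9, DNAJC13, DNAJC17, FKBP3, FKBP15 and HSPBAP1 lay between -0.14 and 0.06; HSPBAP1 is a member by its prefix and is not itself known as a chaperone.

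The scanner software's own error for one spot had a median of 0.21 on replicate 1 and 0.20 on replicate 3, on the log2 scale. Values beyond 2 such errors were found for 19 of 62 members on replicate 1 and 7 on replicate 3, against 28.8% and 14% of all probes. The other members were within 2 errors of 0 on the array in question.

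Other folding genes, from lists chosen for their role, gave a similar picture with no call. The list sizes count symbols, and ERO1A and PHB1 are each also listed under an older symbol. Among all named genes, 3399 of 6376 had a mean below 0. Of 37 other ER folding and quality control symbols 15 were measured, 6 with means above 0 and 9 below. SERPINH1, the collagen chaperone, named after its values were seen, read 0.67, -1.48 and -1.13. Of 44 other cytosolic folding symbols 26 were measured, 9 above and 17 below 0. PPID, an HSP90-bound cyclophilin, read -0.44, -0.29 and -0.42 and had the one unadjusted p under 0.05 among them (unadjusted p = 0.029 and adjusted p = 1.00 by limma). Of 19 other mitochondrial folding symbols 10 were measured, 2 above and 8 below 0.

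Lineage markers were also read, as ratios between the 2 groups, which cannot check the labelled stage. Trophoblast markers were measured for 5 of 8 genes, including KRT8 and GATA3, epiblast markers for 4 of 7, including POU5F1, and hypoblast markers for 6 of 11; TTR, GATA6, SOX17, FOXA2 and AFP had no probe in the table. The 6 hypoblast markers all had means below 0, with medians of -0.20, -0.75 and -1.34 on the 3 arrays; 4 of them were below 0 on every array, while APOA1 and RBP4 were above 0 on replicate 1. Of the 4 epiblast markers 2 were below 0 on every array: POU5F1, a pluripotency factor, read -0.75, -0.52 and -1.62 (unadjusted p = 0.0086 and adjusted p = 0.83 by limma), and ETV4 read -1.04, -0.06 and -0.63. DPPA5 and GDF3 had means of 0.13 and 0.07. Of the 5 trophoblast markers 2 had means above 0 and 3 below, with medians of -0.17, 0.24 and 0.04 on the 3 arrays. ETV4 (0.039), APOB (0.023), APOE (0.039) and CER1 (0.029) also had an unadjusted p under 0.05 by limma, where 4.47% of all probes did. None of these passed the adjusted test. With replicate 2 turned, the means of POU5F1 and ETV4 were -0.62 and -0.54. Those of APOE and RBP4 became 0.03 and 0.29, and the other hypoblast means stayed below 0. The part of these lineages in the results above was not tested.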

How the data were processed

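Frozen and vitrified day 6 embryos were compared on 3 arrays with 2 channels. Per the file headers, Agilent Feature Extraction 10.10.1.1 made the background-subtracted, dye-normalized intensity of each channel and, with its error, the log10 ratio between the channels (red over green) for replicates 1 and 3. The value table the authors deposited holds a log2 ratio per probe for all 3 arrays, with scale, centring and direction unstated; on replicates 1 and 3 it matched the processed red over green intensities (correlation 1), that is frozen over vitrified. Its columns had medians of -0.01, 0.02 and 0.02. It held 0 sample columns that could not be mapped. The scanner file of replicate 2 was not used here.

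Probes were named through the RefSeq table for mOryCun1.1: of the 173 member probes, 127 by accession, 35 by gene identifier, 10 by a shared transcript and 1 by symbol; 22 array probes with conflicting names were left out. Probes that the array describes only in words, such as HSPA1A, were not made members. The brightest probe stood for each gene. Ratios were tested against 0 with limma 3.58.1 in R 4.3.3 over all 22839 probes. The spread between arrays holds biological and technical variation together, and the smallest 2-sided p of an exact sign-flip test with 3 arrays is 0.25. Arrays of 22839 probes were simulated with independent normal noise, at the SD of each probe over the 3 arrays. On them the test recovered 2 of 100 probes changed by 1 on the log2 scale and 52 of 100 changed by 2. Correlation between arrays was not simulated, so these counts need not hold for the real arrays. The members and lists were chosen with earlier results of these data known. Named members were those past the test, up to 4 highest and 4 lowest per compartment among those of one sign, the 3 with the widest range, the 2 with the widest spread between probes, and a fixed list; 31 qualified. In all, 12 alternatives were tried. No genome was used, and no coordinates are given.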

Additional observations from a re-analysis of the deposited data

Results flagged for a closer look

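Of the 11 member genes whose probes are outside the value table, 4 were well above background in the frozen channel of both scanner arrays and in no vitrified channel. Their log2 processed signals in the frozen channel of replicate 1 were 4.84 for DNAJC16, 4.88 for HSPB2, 3.93 for HSPB6 and 3.87 for HSPB9. The vitrified channel of that array gave 5.13, 4.23, 2.47 and 3.91 for the same genes. On replicate 3 the frozen and vitrified channels gave 4.95 and 4.65 for DNAJC16, 4.68 and 3.96 for HSPB2, 4.11 and 2.14 for HSPB6, and 3.83 and 3.92 for HSPB9. HSPB2 and HSPB6 thus had more signal in the frozen channel on both arrays, DNAJC16 on replicate 3 alone and HSPB9 on neither. Frozen embryos were in red on both of these arrays, so storage and dye cannot be told apart here, and 12% of the 20764 probes outside the table were above background in red alone. Of the other genes 4 were above background in one frozen channel and 3, DNAJC12, FKBP5 and HSPA12A, in none.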

How the results depend on the processing

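No member passed the adjusted test under any alternative except one: leaving out each array in turn gave 0 to 2 members, the 2 being DNAJB7 and HSPA2 without replicate 1, where 796 of all probes were called against 0 with all arrays. The count at an unadjusted p under 0.05 was 1 (FKBP14), where 1020 of all 22839 probes passed. It was 4 with the sign of replicate 2 turned (CANX, DNAJB2, HSPD1 and TCP1), where 1064 probes passed. It was 0 with an intensity trend and robust prior (980 probes) and 0 with dye as a covariate (759 probes). With only probes of a log2 signal of at least 7 it was 0 (685 of 16763 probes). The processed signals of replicates 1 and 3 gave 3 (1028 probes), and their normexp and loess values gave 6 (932 probes). Leaving out replicate 1, 2 or 3 gave 8, 3 and 0 members, against 3720, 1027 and 351 of all 22839 probes. The ER median of -0.07 became 0.048 with replicate 2 turned, and the median of the nucleus and other sites of 0.01 became 0.032 with the median over a gene's probes. Other medians moved by less than the spread between arrays. Of the 31 named members, 11 changed the sign of their mean with replicate 2 turned and 9 without replicate 1. With the normexp and loess values of replicates 1 and 3, 7 did. The cause was not tested. The design has 1 group, and each array already pairs both kinds of embryo, so the test of ratios against 0 was itself paired. The 3 arrays limit the precision, and 7 members were dim.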
